A study of Mus musculus with 6 samples.

Results

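Glycogen is the glucose store of the liver, and the 9 genes described here encode proteins that build it, branch it, break it down and switch between these states. They are Gys2, Gbe1, Pgm1, Ppp1r3b, Ppp1r3c, Gsk3b, Pygl, Phka2 and Phkb, found by gene symbol in the platform annotation, out of 18193 genes that have a probe set of their own on the array. The array carries 18 probe sets for them, 6 for Gsk3b, 3 for Phka2, 2 each for Pgm1 and Ppp1r3c and 1 for each other gene. Every probe set annotated to 1 of these symbols alone is reported. Probe sets annotated to several gene symbols were not assigned to any gene.

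Liver RNA came from 6 male mice aged 9 weeks, 1 mouse per single-colour Affymetrix array. In 3 mice (knockouts 3, 4 and 5, genotype Alb-Cre::Keap1(flox/-)) a floxed Keap1 allele lay opposite a null allele. The other 3 (controls 1, 2 and 3, genotype Alb-Cre:Keap1(flox/+)) had a floxed and a wild-type allele. Cre driven by the albumin promoter was present in both groups, so the controls lose their floxed allele where Cre acts, and the null allele of the knockouts is not restricted to hepatocytes. All mice had been given vehicle alone (10% DMSO, 10% Cremophor-EL, 80% PBS). The labels state neither the feeding state nor the hour of tissue collection.

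Glucose enters glycogen as glucose 6-phosphate, which phosphoglucomutase turns into glucose 1-phosphate and UDP-glucose pyrophosphorylase into UDP-glucose. Glycogen synthase then extends linear chains and the branching enzyme adds side chains. Glycogen phosphorylase, switched on by phosphorylase kinase, releases glucose 1-phosphate again. Protein phosphatase 1, held on the glycogen particle by targeting subunits, reverses those phosphorylations, so that it activates synthase and inactivates phosphorylase. KEAP1 marks the transcription factor NRF2 for degradation, and the comparison asks whether these genes differ when hepatic KEAP1 is lost. In skeletal muscle, NRF2 has been linked to the expression of the branching enzyme and of a phosphorylase kinase subunit.

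The targeted gene was lower in the knockouts, although it is not stated here which probes lie in the deleted part, so this check of the labels is limited. The brighter Keap1 probe set had a log2 difference (knockout minus control) of -1.74 and the other of -0.71 (limma, Benjamini-Hochberg adjusted p = 0.0102 and 0.222). Nfe2l2, which encodes NRF2, was lower in its brighter probe set (log2 difference -0.66, adjusted p = 0.0352) and differed by -0.18 in the other (adjusted p = 0.716). Of 11 known NRF2 target genes 8 rose (limma), against 0.982% of all genes read through their brightest probe set. This list was chosen with earlier results of these data known. The liver markers of hepatocytes were bright on all 6 arrays. Their summed signal ranged from 183774 to 208674 in the controls and from 207123 to 231276 in the knockouts. Of these markers, 7 of 8 lay above the controls and 0 passed the threshold. At an unadjusted limma p under 0.05, 3 were higher and 0 lower, against 7.49% higher and 15.4% in either direction of all genes. All genes were read through their brightest probe set. The groups did not overlap in 6 of the 8 markers, against 20.5% of all probe sets tested. Across probe sets, log2 signals of mice from the same group correlated at 0.965 to 0.972, and those of mice from different groups at 0.954 to 0.959. In whole liver, fewer cells of a type and less RNA per cell cannot be told apart.

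Among the 9 glycogen genes, Ppp1r3c and Gbe1 rose in the knockouts and no gene fell. Ppp1r3c encodes a subunit that brings protein phosphatase 1 to glycogen, and Gbe1 encodes the branching enzyme. Of the 17 probe sets that were bright enough to be tested, 3 rose, both of Ppp1r3c and that of Gbe1, and 0 fell (limma). Over all 27022 probe sets tested, 0.814% were called higher, 0.722% lower and 1.54% in either direction. At an unadjusted p under 0.05 the 17 gave 5 higher and 0 lower, against 6.48% higher, 8.01% lower and 14.5% in either direction over all probe sets tested. The median log2 difference was 0.09 over the 17 probe sets and -0.04 over all probe sets. The groups did not overlap in 6 of the 17, against 20.5% of all probe sets tested. A probe set passed when its p-value, adjusted over all probe sets tested, was under 0.05. Differences are on the scale of log2(signal + 16), which understates those of dim probe sets.

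**Figure D1:**
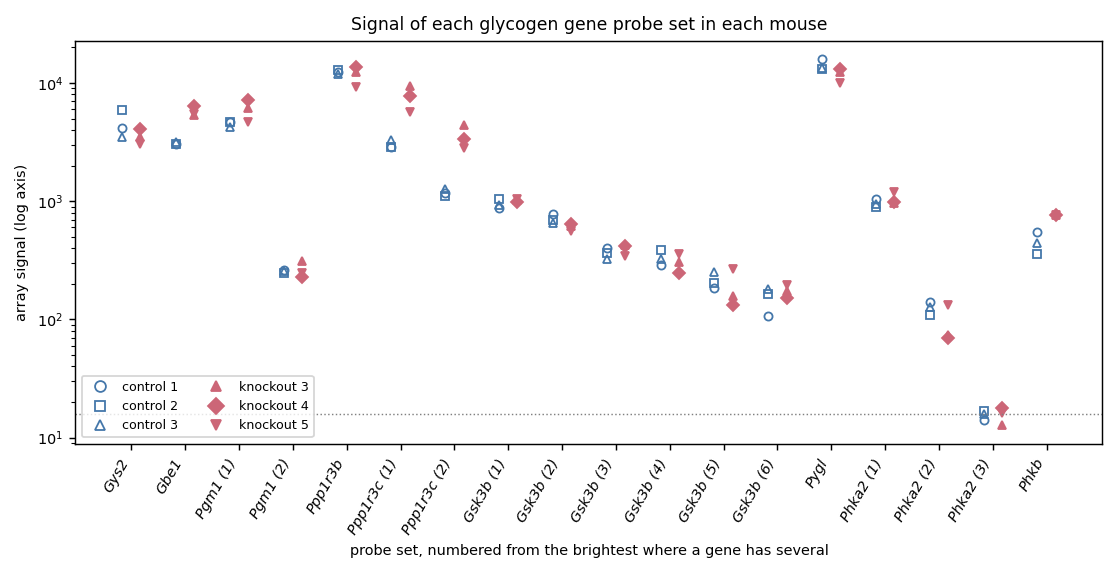
Array signal on a log axis of the 18 probe sets of the 9 glycogen genes, 1 point per mouse, open for controls and filled for Keap1 knockouts. The dotted line marks a signal of 16, the amount added before the logarithm. Gbe1, both Ppp1r3c probe sets, the brighter Pgm1 probe set and Phkb have all knockouts above all controls, and the second Gsk3b probe set has all knockouts below them.

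The genes of chain building are described first. The Gbe1 probe set (1420654_a_at) had signals of 3059.8, 3064 and 3157 in controls 1, 2 and 3, and of 5355, 6361 and 5412 in knockouts 3, 4 and 5. The controls lay within a few percent of each other, and every knockout stood well above them. The rise was 1.84-fold (95% interval 1.57 to 2.15), from a mean of 3094 ± 54.9 to 5709 ± 565 (SD, n = 3 each). Its log2 difference was 0.88 (standard error 0.10, limma adjusted p = 0.00381). Among the 220 probe sets called higher it stood in place 136 by size of the log2 difference, and among all probe sets tested in place 69 by p-value. The branching enzyme makes the side chains that keep glycogen compact and soluble, and its loss causes a glycogen storage disease.

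Gys2 encodes the liver form of glycogen synthase, the rate-limiting enzyme of chain growth. Its signals were 4124, 5929 and 3509 in the controls and 3492, 4104 and 3053 in the knockouts. The groups overlapped, and the spread of the controls came mostly from control 2. The log2 difference was -0.32 (95% interval -0.75 to 0.10, limma adjusted p = 0.475), so a fall to 0.595 of control and a rise to 1.07 of control both lay within the interval. Without control 2 the difference was -0.11. A rise of the size seen for Gbe1 lay outside the interval of Gys2.

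Pgm1 encodes the phosphoglucomutase that converts glucose 6-phosphate and glucose 1-phosphate into each other, in both the synthesis and the breakdown of glycogen. The symbols of the mouse genes Pgm1 and Pgm2 were exchanged in the past, and the gene meant here has Entrez number 72157. Its brighter probe set (1451149_at) had signals of 4663, 4715 and 4215 in the controls and 6089, 7159 and 4716 in the knockouts. The groups did not overlap, but knockout 5 exceeded the highest control by less than 1 signal unit. The log2 difference was 0.38 (95% interval 0.05 to 0.71) and did not pass the threshold (limma adjusted p = 0.277). The dimmer probe set (1437240_at), at 226 to 312 in the knockouts and 246 to 264 in the controls, differed by 0.02 (adjusted p = 0.980).

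The subunits that target protein phosphatase 1 to glycogen gave different calls. Ppp1r3c, also known as PTG, had 2 probe sets, and both rose. The brighter one (1433691_at) had signals of 2874, 2901 and 3308 in controls 1, 2 and 3, against 9457, 7819 and 5660 in knockouts 3, 4 and 5. The other (1425631_at) had signals of 1172, 1097 and 1269.7 in the controls and of 4409.8, 3349 and 2805 in the knockouts. On both, knockout 3 was highest and knockout 5 lowest, and even knockout 5 lay clearly above every control. The brighter probe set rose 2.47-fold (95% interval 1.89 to 3.23), from 3028 ± 243 to 7645 ± 1904 (SD, n = 3 each), with a log2 difference of 1.30 (standard error 0.17, limma adjusted p = 0.00851). The other rose 2.91-fold (95% interval 2.27 to 3.74), from 1179.7 ± 86.6 to 3521 ± 816, with a log2 difference of 1.54 and a standard error of 0.16 (adjusted p = 0.00214). By size of the log2 difference the probe sets took places 67 and 83 among the 220 called higher. Only 1.06% of all probe sets tested had a larger absolute difference than the brighter one and 0.622% than the other. Both probe sets match 1 gene, so they are not independent measurements of the mice.

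Ppp1r3b encodes GL, the targeting subunit best known from liver. Its signals were 12346, 12886 and 11839 in the controls and 12360, 13649 and 9173 in the knockouts. The groups overlapped, with knockout 4 above and knockout 5 below every control. The log2 difference was -0.09 (95% interval -0.41 to 0.22, limma adjusted p = 0.809). Its sign turned without knockout 5 (0.07). The interval does not reach the differences of Ppp1r3c, but a test of the difference between the 2 genes was not run.

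Gsk3b encodes a kinase that phosphorylates and so inactivates glycogen synthase, and it also acts on NRF2 independently of KEAP1. Its 6 probe sets had log2 differences between -0.24 and 0.21, 3 above and 3 below the controls, with adjusted p between 0.493 and 0.793 (limma). The brightest (1454958_at) had signals of 879, 1047 and 934 in the controls and 1015, 976 and 1052 in the knockouts, which overlap. In the second (1437001_at), at 779, 687 and 648 in the controls and 612, 646 and 562 in the knockouts, the groups did not overlap, with a log2 difference of -0.21 (adjusted p = 0.493). No direction is given for this gene, since its probe sets lay on both sides of the controls and 0 of 6 passed.

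On the side of breakdown, Pygl encodes the liver form of glycogen phosphorylase. Its signals were 15924, 12999 and 13472 in the controls and 12306, 13139.8 and 10041 in the knockouts. The groups overlapped in that knockout 4 exceeded control 2. The log2 difference was -0.26 (95% interval -0.54 to 0.02, limma adjusted p = 0.387), without a call, and it was below 0 under all 16 other settings.

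Phosphorylase kinase, which activates phosphorylase, has regulatory alpha and beta subunits, here Phka2 (the liver alpha form) and Phkb. The Phkb probe set (1434511_at) had signals of 544, 357 and 447 in the controls and of 769, 765 and 763 in the knockouts. The knockouts were nearly equal, and all lay above the highest control. The log2 difference was 0.77 (standard error 0.16, 1.70-fold, 95% interval 1.33 to 2.18), from 449.5 ± 93.6 to 766 ± 3.23 (SD, n = 3 each), and it missed the threshold over all probe sets (limma adjusted p = 0.0554). Phkb passed with 1 probe set per gene (adjusted p = 0.0488), with the filter at the 60th percentile (0.0421) and without control 1 (0.0435), and in none of the other 13 settings, where the adjusted p reached 0.193. The count of glycogen genes that rose was therefore 2 with probe sets as the unit and 3 with genes as the unit.

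The brightest Phka2 probe set (1434518_at) had signals of 1046, 892 and 956 in the controls and 972, 985 and 1205 in the knockouts, with a log2 difference of 0.12 (limma adjusted p = 0.710). A dimmer one (1437941_at) had signals of 139.9, 109 and 128 in the controls and 73.2, 69.9 and 132 in the knockouts, a log2 difference of -0.44 (adjusted p = 0.538). Knockout 5 lay within the controls there, while knockouts 3 and 4 lay below them. The third (1430492_at), at 12.7 to 17.9 over all mice, was too dim to be tested. The 2 tested Phka2 probe sets differed in sign, and 0 of them passed.

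**Figure D2:**
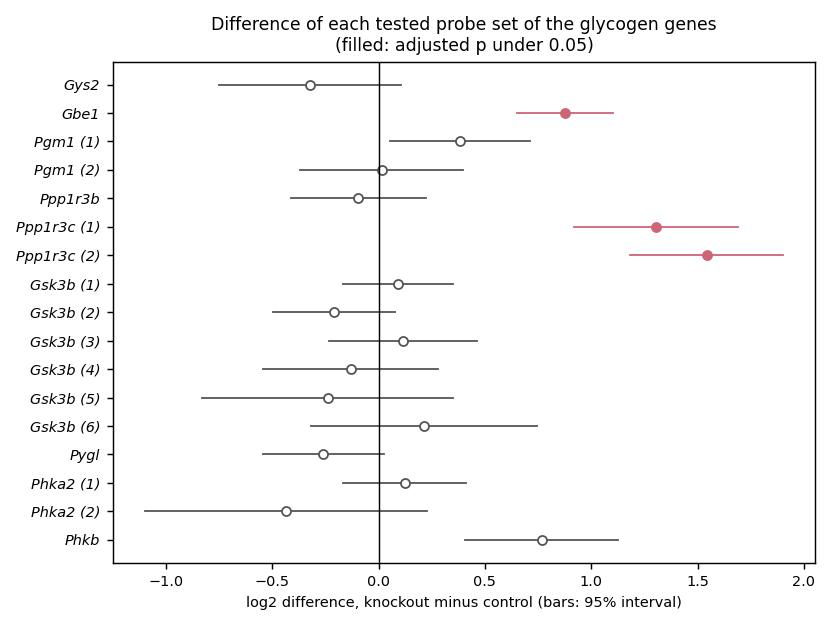
Log2 difference (knockout minus control) of the 17 tested probe sets, with 95% intervals from limma, numbered from the brightest where a gene has several. The filled points, Gbe1 at 0.88 and Ppp1r3c at 1.30 and 1.54, passed the threshold. Phkb at 0.77 and the brighter Pgm1 probe set at 0.38 have intervals above 0 without passing after adjustment over all probe sets.

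The rises of Ppp1r3c and Gbe1 did not rest on 1 mouse. Leaving out each array in turn, the log2 difference ranged from 0.80 to 0.92 for Gbe1, from 1.13 to 1.50 for the brighter Ppp1r3c probe set and from 1.37 to 1.69 for the other. All 3 passed in all 6 of these runs, with limma adjusted p between 0.0117 and 0.0206, between 0.00224 and 0.0377, and between 0.00279 and 0.0121. Both ends of the Ppp1r3c ranges came from knockouts, the lower without knockout 3 and the higher without knockout 5. Without the mean-variance trend, Gbe1 (adjusted p = 0.0533) and the brighter Ppp1r3c probe set (0.0678) lost their call, and the other Ppp1r3c probe set kept it (0.0323). Scaling on the hybridisation controls moved the median of all probe sets by -0.16 on the log2 scale. Under that scaling the log2 difference was 0.71 for Gbe1 (limma adjusted p = 0.0217) and 1.14 and 1.38 for Ppp1r3c (0.00836 and 0.00192).

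**Figure D3:**
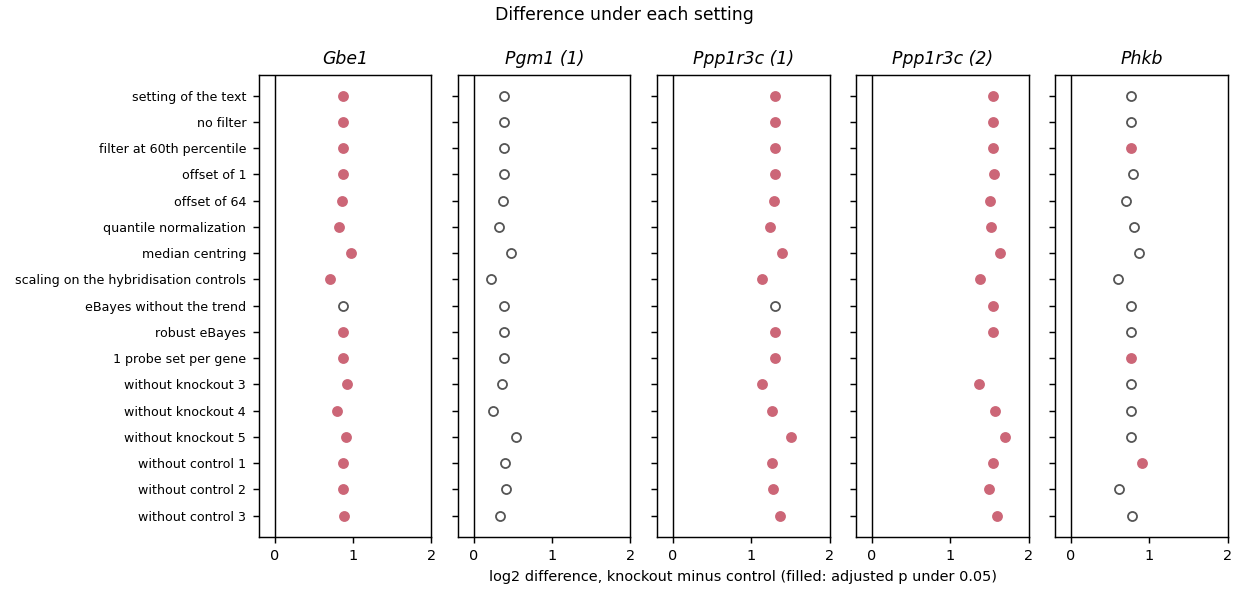
Log2 difference (knockout minus control) of 5 probe sets under the setting of the text and 16 others, filled where the limma adjusted p was under 0.05. Gbe1 and both Ppp1r3c probe sets are filled under all settings with a value except, for Gbe1 and the brighter Ppp1r3c probe set, eBayes without the trend. Phkb is filled in 3, the brighter Pgm1 probe set in none, and the dimmer Ppp1r3c probe set has no value with 1 probe set per gene.

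The promoters of Gbe1 and Ppp1r3c, which rose among the 9 genes, are shown because the comparison concerns a transcription factor, NRF2. NRF2 binds antioxidant response elements as a partner of small Maf proteins. RefSeq windows of build GRCm38.p6, from 250 bases before the start of transcription to 50 after it, were at hand for 7 of the 9 genes, Gys2 and Ppp1r3b not among them. The windows below run 5′ to 3′ on the strand of the gene, and capitals mark each match to TGANNNNGC, a relaxed form of the element, on either strand. The Gbe1 window lies at chr16:70313699-70313998 (+ strand) and the Ppp1r3c window at chr19:36736555-36736854 (- strand).
Gbe1: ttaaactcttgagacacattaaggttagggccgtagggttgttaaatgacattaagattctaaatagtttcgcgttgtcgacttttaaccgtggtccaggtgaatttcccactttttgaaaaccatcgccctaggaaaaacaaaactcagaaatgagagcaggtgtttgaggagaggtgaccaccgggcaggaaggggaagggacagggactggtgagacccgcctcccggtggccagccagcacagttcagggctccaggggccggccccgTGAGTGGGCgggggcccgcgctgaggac
Ppp1r3c: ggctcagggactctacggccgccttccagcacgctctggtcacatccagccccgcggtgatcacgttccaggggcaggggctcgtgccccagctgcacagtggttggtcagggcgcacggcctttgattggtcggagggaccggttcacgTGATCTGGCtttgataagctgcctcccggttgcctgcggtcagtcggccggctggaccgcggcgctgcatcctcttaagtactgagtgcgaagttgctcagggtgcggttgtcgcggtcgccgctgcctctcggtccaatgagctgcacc

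The stricter core TGACNNNGC occurred in 0 of the 7 windows on either strand, while 12.4% of all 32851 promoter windows held it. The relaxed form, of which the core is a special case, occurred in 4 of the 7, those of Gbe1, Ppp1r3c, Phkb and Gsk3b, and in 41.3% of all windows. In Gbe1 it lay from 23 to 31 bases after the start, as TGAGTGGGC, and in Ppp1r3c from -100 to -92, as TGATCTGGC. The Ppp1r3c match overlaps an E-box, CACGTG, at -104 to -99, which occurred in 7.15% of all windows and in 1 of the 7. The hypoxia response core, ACGTG, lies within that E-box. Over both strands this core had 3 matches in the Ppp1r3c window. It occurred in 3 of the 7 windows and in 19.6% of all windows. Gsk3b, for which no direction is given, holds the relaxed form as well. Ugp2, a further glycogen gene that rose and is described below, was also scanned. Each of its windows held 0 matches to the relaxed form and 0 to the core. These matches describe letters in short windows and do not show binding.

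Other genes of the pathway were counted through their brightest probe set, from a list of 42 genes of which 38 had a probe set and 33 were tested. Of these 33, 1 rose, Ugp2, and 0 fell, while 5 higher and 1 lower had an unadjusted limma p under 0.05. Over all 13036 genes counted this way, 1.87% were called in either direction and 0.982% higher, and 7.49% were higher and 7.87% lower at an unadjusted p under 0.05. The median log2 difference of the list was 0.06, against -0.02 for all genes. The list gave 20 genes above and 13 below the controls.

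Ugp2 encodes UDP-glucose pyrophosphorylase, whose product UDP-glucose is the substrate of glycogen synthase and also the source of UDP-glucuronic acid. Its brightest probe set (1451742_a_at) had signals of 14959, 11854 and 11089.5 in the controls and of 20812, 23860.4 and 18581 in the knockouts. All knockouts lay above all controls, with knockout 4 highest. The log2 difference was 0.74 (standard error 0.14, limma adjusted p = 0.0338), and 4 of its 5 probe sets passed, with differences between 0.74 and 0.90. The other differed by 0.58 (adjusted p = 0.0873). The call of the brightest probe set was lost in 8 of 16 other settings, in 4 of which 1 array was left out, knockout 3 (adjusted p = 0.120), knockout 4 (0.0942), control 2 (0.121) or control 3 (0.0999).

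The other genes with the largest differences on the list did not pass. Pygm, the muscle form of phosphorylase, was dim, at 76.7, 90.9 and 23.5 in the controls and 109.7, 124 and 83.7 in the knockouts (log2 difference 0.72, limma adjusted p = 0.474). G6pc, the catalytic subunit of glucose 6-phosphatase, which releases free glucose, varied widely, at 18865, 17568 and 9066 in the controls and 7895, 16911 and 5036 in the knockouts (-0.72, adjusted p = 0.466). The range of G6pc within each group was more than the gap between the means, and its difference lay between -1.19 and -0.32 over the other settings. Ppp1r3a, the targeting subunit of muscle, differed by -0.45 (adjusted p = 0.563), and the lysosomal glucosidase Gaa by 0.43 (adjusted p = 0.371). The remaining targeting subunits gave 1 tested gene, Ppp1r3e, at -0.03, while Ppp1r3d, Ppp1r3f and Ppp1r3g were too dim to be tested. Ppp1r3d was at 76.1, 88.1 and 115.8 in the controls and 52.3, 13.6 and 58.1 in the knockouts. Ppp1r3f was at 88.3, 69.1 and 85.4 in the controls and 45.6, 41.2 and 53.6 in the knockouts. All knockouts lay below all controls for both, and the groups overlapped for Ppp1r3g. The groups did not overlap in 8 of the 33 tested genes of the list and in 20.5% of all probe sets tested. No such share was counted among probe sets too dim to be tested.

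By role, 0 of 3 phosphatase catalytic subunits passed (2 higher at an unadjusted limma p under 0.05), with log2 differences from 0.04 to 0.36. Of the 9 kinases of the list, among them protein kinase A and AMP-activated kinase subunits, 0 passed (1 higher at an unadjusted p under 0.05), with differences from -0.21 to 0.39. Of the genes of glucose release 0 of 3 passed (1 higher at an unadjusted p under 0.05), and of the hormone receptors 0 of 3 (0 at an unadjusted p under 0.05). The laforin and malin genes Epm2a and Nhlrc1 differed by 0.03 and -0.12. Some genes are named here outside the rule, after their values were seen, because they pair with the genes above. Ppp1ca, a catalytic subunit that the targeting subunits bind, was at 4048, 3989.9 and 4022 in the controls and 5226, 5581 and 4708 in the knockouts, all above the controls, without passing (log2 difference 0.36, limma adjusted p = 0.125). Phka1, the muscle counterpart of Phka2, differed by -0.41 in its brightest probe set (adjusted p = 0.315), with all knockouts below all controls. Phkg2, the liver catalytic subunit of phosphorylase kinase, differed by -0.01 (95% interval -0.26 to 0.25, adjusted p = 0.990).

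**Figure D4:**
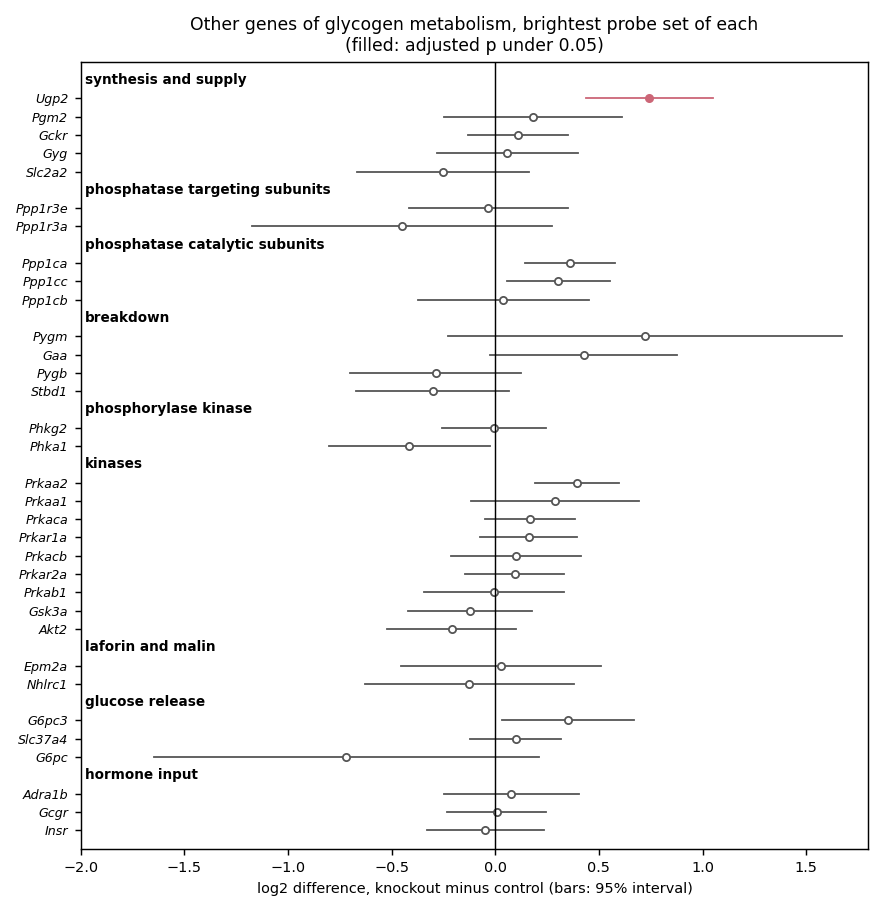
Log2 difference (knockout minus control) with 95% intervals from limma for the 33 other tested genes of glycogen metabolism, each through its brightest probe set, grouped by role. Ugp2 at 0.74 is the only filled point and the only gene of the list that passed the threshold in this setting.

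Several states of the liver that act on glycogen genes were read from the same fit, each gene through its brightest probe set. Over all 13036 genes read this way, 0.982% were called higher and 1.87% in either direction. At an unadjusted limma p under 0.05, 7.49% were higher and 7.87% lower. The 11 genes that respond to feeding were split, after their values were seen, into those known to be raised by feeding and those known to be raised by fasting. Of the 5 raised by feeding (Pnpla3, Srebf1, Fasn, Pklr and Acly, genes of lipid and glucose metabolism), 3 fell and 0 rose (limma; 0 higher and 5 lower at an unadjusted p under 0.05), with log2 differences from -1.62 to -0.65. Of the 6 raised by fasting (Pck1, Ppargc1a, Fgf21, Angptl4, Igfbp1 and Cpt1a), 0 passed (limma; 0 at an unadjusted p under 0.05), with differences from -0.67 to 1.03, 2 above and 4 below the controls. The largest differences among the 11 were those of Pnpla3 at -1.62 (adjusted p = 0.0131) and Acly at -1.28 (0.0307). Of 8 genes induced by glucocorticoids, of which Per1 is also on the clock list, 1 rose and 0 fell (3 higher and 0 lower at an unadjusted p under 0.05), with a median of 0.39. That gene was Fkbp5 at 1.20 (adjusted p = 0.0146), while Lcn2 at 2.60 did not pass (0.244). Lcn2 had signals of 346, 2072 and 796 in the controls and 27130, 2233 and 2238 in knockouts 3, 4 and 5. Of 11 hypoxia-responsive genes 2 rose and 0 fell (3 higher and 0 lower at an unadjusted p under 0.05), with a median of 0.10, led by Ddit4 at 2.25 (adjusted p = 0.0175). Of 12 clock genes 0 passed (2 higher at an unadjusted p under 0.05), with Ciart at 2.01 (adjusted p = 0.274). Ciart had signals of 287, 420 and 19.7 in controls 1, 2 and 3 and 719, 525 and 755 in the knockouts. The part of these states in the differences of Ppp1r3c and Gbe1 was not tested.

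Markers of other cells were set beside these values. The summed signal of 9 Kupffer cell and leukocyte markers was 9053 to 15178 in the controls and 12268 to 16186 in the knockouts, that of 5 endothelial markers 4821 to 4976 and 5060 to 5411, and that of 6 stellate markers 9599.6 to 10545 and 9157 to 10277. The 4 cholangiocyte markers summed to 294 to 1287 and 252 to 500, with Krt19 at 502 in control 2 and at most 88.5 in the other mice. The 4 skeletal muscle markers, which bear on Pygm, Ppp1r3a and Phka1, summed to 218 to 362 in the controls and 250 to 340 in the knockouts. Tested were 8 of the 9 Kupffer cell and leukocyte markers, 1 of the 4 skeletal muscle markers and all markers of the other lists. Of those tested, 0 passed the threshold (limma). At an unadjusted p under 0.05, 3 were higher and 1 lower, against 7.49% and 7.87% of all genes read through their brightest probe set. Of all markers 0 were under a signal of 16 on every array. Of these sums only the endothelial ones did not overlap between the groups. Among the endothelial genes, Lyve1, named after its values were seen, had signals of 238, 332 and 582 in the controls and 739, 705 and 1394 in the knockouts (log2 difference 1.29, limma adjusted p = 0.118). Without Lyve1 the other 4 summed to 4238.5 to 4696 in the controls and 3980 to 4706 in the knockouts, which overlap. Of the 8 tested Kupffer cell and leukocyte markers 6 lay above and 2 below the controls. Marco, also named after its values were seen, had the largest difference among them (log2 difference 1.40, limma adjusted p = 0.120). Its signals were 298, 98.6 and 225 in the controls and 770, 492 and 387 in the knockouts. The part of these cells in the glycogen differences was not tested.

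The probe sets whose log2 signal ran most like that of each called probe set over the 6 arrays are given as a description. For Gbe1 they were those of Cpeb4, Prkaa2 and Bex4 (Pearson r = 0.996, 0.995 and 0.995), with log2 differences of 0.39, 0.39 and 2.48. For the brighter Ppp1r3c probe set they were those of Nudt4, Rexo2 and Akr1a1 (r = 0.998, 0.995 and 0.994), and for the other those of Mthfd1l, Cds2 and Rexo2 (r = 0.998, 0.996 and 0.995). Rexo2, at a log2 difference of 0.42, stood on both lists. With 6 arrays in 2 groups, any gene that separates the groups in the same order of mice has a high r.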

How the data were processed

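Total RNA of 6 livers was labelled with biotin and hybridised to single-colour arrays, per the labels' protocols. The authors deposited linear intensity values, 1 per probe set and array, made with software that the sources used here do not name. The mean without the lowest and highest 2% was about 500 on every array, so the deposited intensity had been scaled to a shared target. Between 11.9% and 16.5% of values on an array were under 16, and the actin 3′ probe set was 1.54 to 1.90 times as bright as the 5′ one.

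Of 45101 probe sets, 64 controls were left out, and those with a mean signal at or above the 40th percentile were tested (27022). A linear model of log2(signal + 16) was fitted in limma 3.58.1 (R 4.3.3), with two-sided tests, variances moderated along a trend with mean signal, and Benjamini-Hochberg adjustment over all probe sets tested. Genes were named from probe sets with 1 symbol (34945; 932 had several, 9160 none). The fit was tested on simulated data.

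The 9 genes, lists and tests were chosen with earlier results of these data known. The rule for naming covered the 9 genes, other glycogen genes past the threshold and the 4 with the largest difference among the rest. It also covered at most 2 genes of each list of liver states, and the 3 genes most like each called probe set. Genes named beyond this rule include all 11 feeding genes, which were split after their values were seen. An exact permutation test of 3 against 3 mice cannot go below p = 0.1, and the number of arrays limits precision. Other settings were filters, offsets of 1 and 64, normalizations, variance models, 1 probe set per gene and leaving out each array.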

Additional observations from a re-analysis of the deposited data

How the results depend on the processing

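No paired analysis was run, since the sample labels name no pairs of mice across the groups. The replicate numbers of the groups share only the number 3. The count of probe sets called was 415 (53.0% higher). It was 271 without a filter, 109 without the variance trend (65.1% higher), 263 with 1 probe set per gene and 150 to 296 leaving out each array. The runs that moved it by over 1.5 times left out knockout 3 (150), control 1 (216), control 2 (218), control 3 (245) or knockout 5 (275). The share of higher calls was 67.7% when arrays were centred on their medians (191 higher, 91 lower) and 23.8% when they were scaled to the hybridisation controls (134 higher, 428 lower). The count of glycogen probe sets called was 3, but 1 without the trend, 4 with the filter at the 60th percentile, and 3 to 4 leaving out each array. With 1 probe set per gene it was also 3, those of Gbe1, Ppp1r3c and Phkb. Of the other glycogen genes 1 was called, but 0 without a filter, without the trend, with median centring or with hybridisation control scaling, and 0 to 1 leaving out each array (0 in the runs lacking knockout 3, knockout 4, control 2 or control 3). The cause was not tested, except that fewer arrays enter the runs that leave 1 out.

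Signs turned in 9 cases, all of differences that never passed. Hybridisation control scaling moves every probe set by the same -0.16, so small differences above 0 turn by construction. These were the brightest Phka2 probe set (-0.042), the dimmer Pgm1 probe set (-0.15) and the Gsk3b probe sets 1454958_at and 1451020_at (-0.073 and -0.049). Median centring likewise moves every probe set by 0.095, and Ppp1r3b went to 0.00059. Leaving out each array, Ppp1r3b ranged from -0.21 to 0.073 (above 0 lacking knockout 5), the dimmer Pgm1 probe set from -0.11 to 0.11 (below 0 lacking knockout 3 or control 2, at -0.11 and -0.0097) and Gsk3b 1439949_at from -0.25 to 0.0012 (above 0 lacking knockout 4), where fewer arrays enter.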
